A study of Danio rerio with 9 samples.

Results

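Circular RNAs (circRNAs) of the zebrafish brain were compared between 3 libraries of cypermethrin-exposed fish and 3 libraries of untreated fish. The comparison takes in every circRNA with reads in at least 2 of these 6 libraries, which gave 953 of the 2581 circRNAs in the deposited table (36.9%). Both groups are labelled brain tissue. The control group carries the label no toxication and the exposed group the label CYP, and the series title names acute cypermethrin toxication. A further group of 3 libraries, labelled CPF and named chlorpyrifos in the title, enters the fits and the filter on which circRNAs are tested. Outside these it is given only as levels, reads and correlations, for reference. The sources used here give no dose, exposure time, strain, age, sex or number of fish per library. Whether the libraries of a group are separate fish is not stated either, and p-values therefore reflect the spread among libraries, which may be technical. In whole tissue, fewer cells of a type and less RNA per cell cannot be told apart. The table names circRNAs by number, so the tissue could not be checked against marker genes, and host genes and sequences were not used here.

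A circRNA forms when the end of an exon is spliced back to the start of the same or an earlier exon, which closes the RNA into a ring without free ends. Rings resist the exonucleases that degrade linear RNA from its ends, and neurons are known to be rich in them. Cypermethrin is a pyrethroid insecticide that delays the closing of voltage-gated sodium channels and so prolongs nerve firing. The comparison asks which brain circRNAs differ in level after this exposure.

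Levels are counts of reads over a back-splice junction, scaled to 1000000 reads in the library (RPM). Each circRNA has a single such junction, so a level counts junctions and is not divided by length. The 6 libraries held 69581174 to 94702656 reads, of which 8906 in sum belonged to the 953 circRNAs. The signal was thin: the median circRNA had 6 reads over the 6 libraries, and 704 (73.9%) had fewer than 10. Where a library shows 0 reads, a true count of up to 3 remains possible, which is 0.0317 to 0.0431 RPM. Over a whole group the same limit is 0.0122 RPM in control and 0.0131 RPM in CYP. Such limits and the counting intervals given later cover counting error alone, since reads copied by PCR are not separate molecules. The 431 circRNAs at the threshold, with reads in exactly 2 libraries, had a median of 4 reads, and the 948 just outside it, with reads in 1 library, had a median of 2.

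Control 1 and CYP 3 stood apart from the other libraries. Control 1 detected 345 of the 953 circRNAs, against 529 in control 2 and 541 in control 3, although its library total was the highest of the 6. Of the circRNAs it detected, 13.0% rested on a single read, while the share was 25.5% in CYP 1 and 40.5% to 48.6% in the other 4 libraries. It had 0 reads for 36 circRNAs that were present in all 5 other libraries, where each of the others lacked 5 to 18 in this way. CYP 3 had the lowest summed level, 14.6 RPM, with the other 5 libraries between 18.2 and 20.9 RPM. Log levels of the 888 tested among the 953 circRNAs correlated at 0.190 to 0.330 between libraries of a group (6 pairs) and at 0.0805 to 0.266 between control and CYP libraries (9 pairs). Pairs of control 1 with a CYP library gave 0.0805 to 0.167. The other control and CYP pairs gave 0.222 to 0.266, inside the range found within groups. Pairs of a control or CYP library with a CPF library ran from 0.153 to 0.459. Within groups, the pairs without control 1 gave 0.330 for control 2 with control 3, and 0.292, 0.190 and 0.294 among CYP libraries. Of these, only CYP 1 with CYP 3, at 0.190, lay below the 0.222 to 0.266 found between groups. Whether correlations set control and CYP apart was not tested. They are a description across circRNAs that share library and depth.

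The summed level of the 953 circRNAs did not separate the groups. Control libraries summed to 18.2, 20.3 and 19.1 RPM and CYP libraries to 19.7, 20.9 and 14.6 RPM. The means were 19.2 ± 1.06 and 18.4 ± 3.32 RPM (SD, n = 3 each). Their log2 ratio was -0.08 with an SE of 0.17 (p = 0.9, exact two-sided permutation test). Leaving out CYP 3 gave 0.08 (SE 0.06). CPF libraries summed to 30.0 to 41.2 RPM over the same circRNAs. A CYP library detected 500.3 ± 54.3 of them and a control library 472 ± 110, for a log2 ratio of 0.11, SE 0.23 (p = 0.8, exact permutation test). Without control 1 that ratio was -0.10 (SE 0.09), so its direction rests on this library. The 10 circRNAs with the highest mean level took 12.3 ± 1.47% of the reads of the 953 in control and 11.2 ± 1.55% in CYP (exact permutation p = 0.4). With 3 against 3 libraries the smallest possible p is 0.1.

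**Figure D1:**
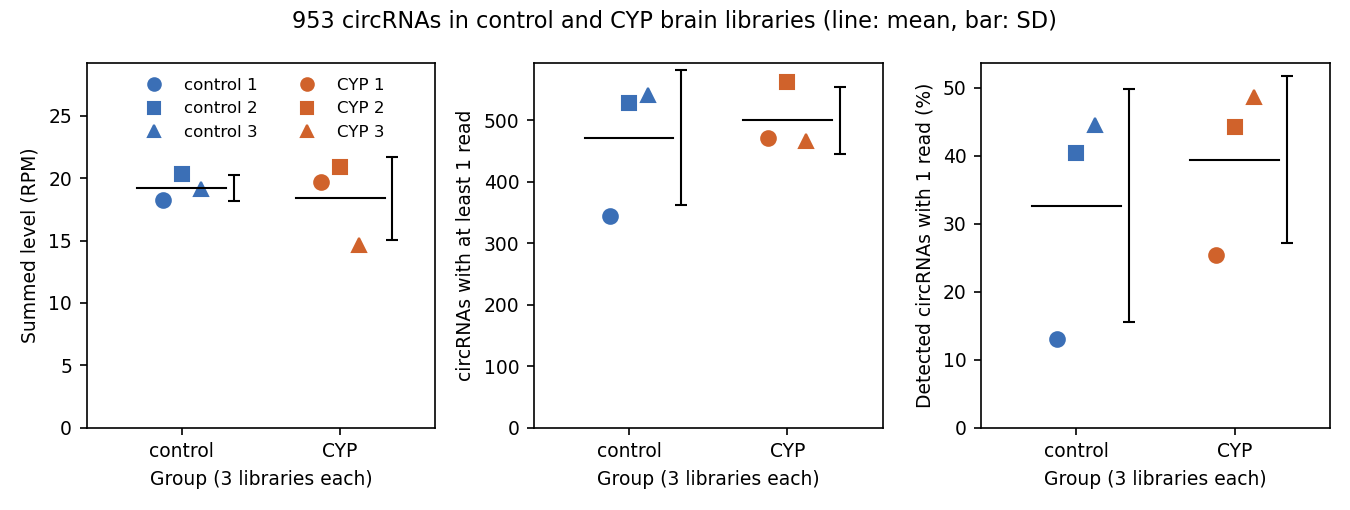
Summed level in RPM, number of circRNAs with at least 1 read and percent of detected circRNAs with a single read, for the 953 circRNAs in each control and CYP library. Lines are means and bars SD over 3 libraries. Control 1 has the fewest detected circRNAs (345) and CYP 3 the lowest summed level (14.6 RPM), and the groups overlap in all 3 measures.

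Divided by how many of the 6 libraries detected them, the circRNAs present everywhere were the class with the widest gap between groups. Of the 953, 431 were seen in 2 libraries, 238 in 3, 138 in 4, 88 in 5 and 58 in all 6. The 58 summed to 5.68, 5.55 and 5.74 RPM in the control libraries and to 4.53, 5.23 and 3.65 RPM in the CYP libraries. Every CYP library lay below every control library, and the control libraries differed little from each other. The log2 ratio was -0.36 (SE 0.15), or 0.782-fold, with an exact permutation p of 0.1, the smallest possible. Adjusted by Benjamini-Hochberg over the 8 exact tests of summed levels, numbers and shares, it was 0.8, so it did not pass. The classes were examined after the data were seen. The same 58 circRNAs held 27.3% to 31.2% of the reads of the 953 in control libraries and 23.0% to 25.1% in CYP libraries. In the other 4 classes the log2 ratios were -0.08 (SE 0.14), -0.03 (SE 0.18), 0.27 (SE 0.18) and -0.02 (SE 0.25), from 2 to 5 libraries. Scaled by TMM factors the ratio of the 58 was -0.18 (SE 0.19) and the groups overlapped, and without CYP 3 it was -0.22 (SE 0.11).

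**Figure D2:**
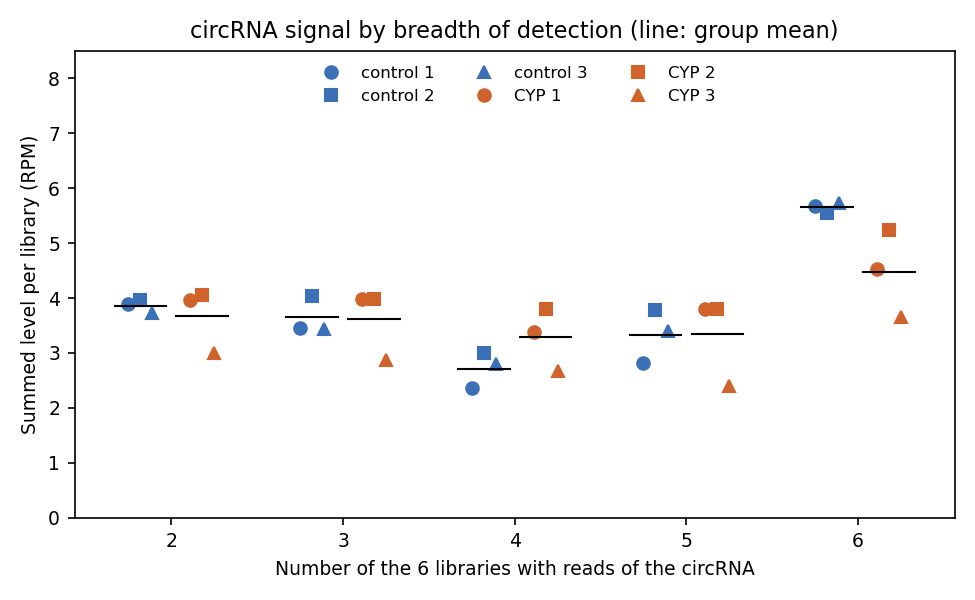
Summed level per library in RPM of the 953 circRNAs, by the number of the 6 libraries in which a circRNA had reads. Points are libraries and lines group means. In the class present in all 6 libraries the control libraries sit at 5.55 to 5.74 RPM and the CYP libraries at 3.65 to 5.23 RPM, while in every other class the groups overlap.

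Of the 58 circRNAs present in all 6 libraries, 36 had a lower and 22 a higher fitted value in CYP, with a median log2 fold change of -0.20, against 0.03 over all 1158 circRNAs tested. For 9 of them every CYP library lay below every control library, and for 3 every CYP library lay above, where 3.20% and 3.63% of the 1158 tested did so. A group can lie fully above the other only with reads in all 3 of its libraries. The 1158 include 366 circRNAs with reads in 2 of the 6 libraries and 270 with reads in fewer, which cannot separate. The 58 were chosen for reads in all 6, so these shares are not like for like. In the limma fit 0 of the 58 passed at an adjusted p under 0.05, and 5 were under 0.05 unadjusted (6.48% of all tested were), 4 lower and 1 higher. The 95% interval of the log2 fold change included 0 for 53 of the 58. On the scale of the fit it excluded a 4-fold change in both directions for 31 and a 2-fold change for 0. A constant is added to every level before the log, which understates changes of low circRNAs. The 58 include circRNAs with as few as 9 reads over the 6 libraries. For such low circRNAs an interval of this kind does not exclude a 4-fold change in level.

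dre_circ_2902 had the highest mean level of the 953. Its values were 0.454, 0.475 and 0.733 RPM in control and 0.206, 0.446 and 0.322 RPM in CYP, from 135 and 72 reads. All 3 CYP libraries lay below all 3 control libraries, by a margin that was narrow between CYP 2 and control 1. The log2 fold change was -0.78 (SE 0.47, 95% interval -1.71 to 0.15; limma adjusted p = 0.789). CPF libraries were at 1.14, 1.61 and 1.19 RPM, above all control and CYP values. The decimal point of these 3 CPF values was restored, and they enter the fit behind the SE. Without dre_circ_2902 the log2 ratio of the summed level of the other 57 circRNAs was -0.32 (SE 0.16).

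dre_circ_3268, the fourth in level, had a wider gap. It stood at 0.422, 0.280 and 0.303 RPM in control and at 0.0915, 0.101 and 0.182 RPM in CYP. The lowest control library was above the highest CYP library, and the means were 0.335 ± 0.0765 and 0.125 ± 0.0498 RPM (SD, n = 3). Pooled reads, 84 against 28, gave a 2.79-fold lower level in CYP. The log2 fold change was -1.38 (SE 0.60, interval -2.56 to -0.19), and it stayed between -1.66 and -1.20 when any single library was left out, but the limma adjusted p was 0.711. CPF libraries were at 0.316 to 0.385 RPM, within the control range.

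dre_circ_408, the fifth in level, was on average higher in CYP. CYP libraries held 0.320, 0.331 and 0.238 RPM and control libraries 0.0528, 0.266 and 0.0758 RPM. CYP was even across its libraries, while control 2 lay inside the CYP range and the other controls far below it. The log2 fold change was 1.38 (SE 0.62, interval 0.15 to 2.62; limma adjusted p = 0.711). It was 2.01 without control 2 and 0.96 without control 1. The CPF mean, 0.313 ± 0.0732 RPM, was near that of CYP.

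The other 7 of the 10 highest-level circRNAs overlapped between the groups. dre_circ_33 ran from 0.180 to 0.280 RPM in control, and in CYP it ranged more widely, at 0.572, 0.388 and 0.140 RPM. The fitted log2 difference, 0.42 (SE 0.56), was 0.0065 once CYP 1 was left out and 0.98 once CYP 3 was left out. For dre_circ_517 the control values were 0.127, 0.308 and 0.341 RPM and the CYP values 0.183, 0.388 and 0.140 RPM, so that both groups spanned a like range (log2 fold change -0.13, interval -1.28 to 1.02). dre_circ_2369 (-0.48, interval -1.73 to 0.77) and dre_circ_3035 (-0.16, interval -1.47 to 1.15) overlapped as well. Among the 10 the log2 fold changes ran from -1.38 to 1.38 with a median of -0.15, 4 above 0 and 6 below.

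Leaving out control 1 turned the direction of 4 of these 7. dre_circ_713 had 0, 12 and 10 control reads and 22, 17 and 2 CYP reads, and its log2 fold change of 1.04 became -0.18 without control 1. dre_circ_2518 had 2 reads in control 1 against 16 and 24 in the other controls, and its log2 fold change of 0.18 became -0.83 without control 1 and -0.34 without CYP 2. dre_circ_3196 had 39 reads in control 1 against 8 and 2 in the others, and its log2 fold change of -0.70 became 0.18 without control 1 and 0.15 without CYP 1. dre_circ_3035 is the fourth, at 0.041 without control 1. dre_circ_517 also turned, at 0.16, 0.04 and 0.11 without CYP 3, control 2 and control 3. CPF levels of dre_circ_713 were 0.418, 0.983 and 0.931 RPM, above all 6 values of the other groups.

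**Figure D3:**
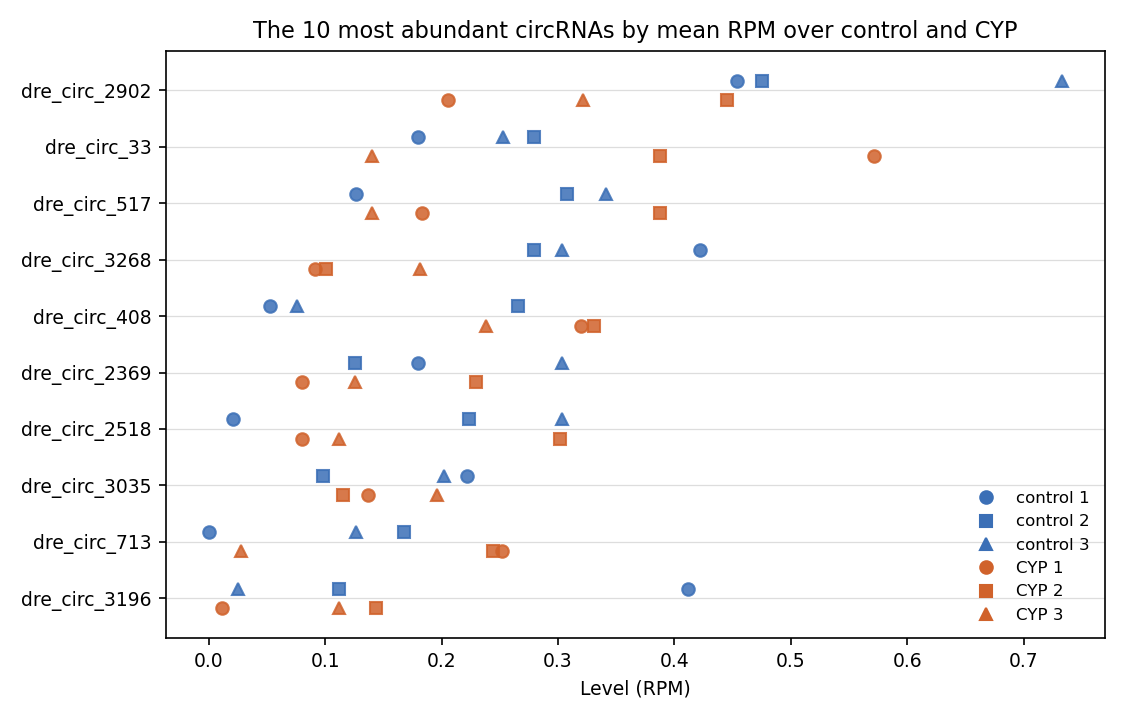
Level in RPM of the 10 circRNAs with the highest mean over control and CYP, in each of the 6 libraries. Control and CYP points do not overlap for dre_circ_2902 and dre_circ_3268, both lower in CYP, and overlap for the other 8.

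Across all circRNAs no single difference passed. The test was limma on log2(RPM + 0.0126) over the 1158 circRNAs with reads in at least 3 of all 9 libraries, which include 888 of the 953. The other 65 had reads in exactly 2 of the 6 libraries and none in CPF. Of the 888, 0 passed at an adjusted p under 0.05 (0.00% of the 1158; smallest 0.273). At an unadjusted p under 0.05 there were 75, all of them among the 888 (6.48% of the 1158 tested), 31 higher in CYP (2.68%) and 44 lower (3.80%). Uniform p-values over the 1158 would give 57.9. That number counts 270 circRNAs outside the 953, with too few control and CYP reads to differ much, and 0 of these were under 0.05. It is therefore not a like benchmark for the 75, which were 8.45% of the 888. With the CPF libraries left out of the limma fit there were 47, 21 higher and 26 lower. By edgeR with TMM 0 passed after adjustment and 77 without it, 42 higher and 35 lower. By DESeq2 these were 0 and 40, 27 higher and 13 lower, and by edgeR on the library totals 0 and 90, 42 higher and 48 lower. Libraries of the groups did not overlap for 79 circRNAs (6.82%), 42 higher in CYP (3.63%) and 37 lower (3.20%). The log2 fold change was above 0 for 499 of the 888 (56.2%), near the 54.1% over all tested. Its quartiles over the 888 were -0.46 and 0.60, and the median SE was 0.76.

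The place of control 1 among these circRNAs was described in both directions. Of the 31 circRNAs higher in CYP at an unadjusted p under 0.05, 28 had 0 reads in control 1, and 566 (63.7%) of the 888 had 0 reads there. A low p in this direction favours 0 reads in any control library: 11 with reads in all 3 CYP libraries had 0 in every control library. Of the 44 that were lower, 24 had their highest level in control 1, and 148 (16.7%) of the 888 did. Being lower in CYP likewise favours a highest level in some control library. Like counts for control 2 and control 3 were not made, so neither contrast with the 888 singles out control 1. Without control 1 the counts were 17 higher and 44 lower, and 37 of the 75 were again at an unadjusted p under 0.05. Without CYP 3 they were 52 and 25, with 46 of the 75. The part of these libraries in the single differences was not tested further.

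**Figure D4:**
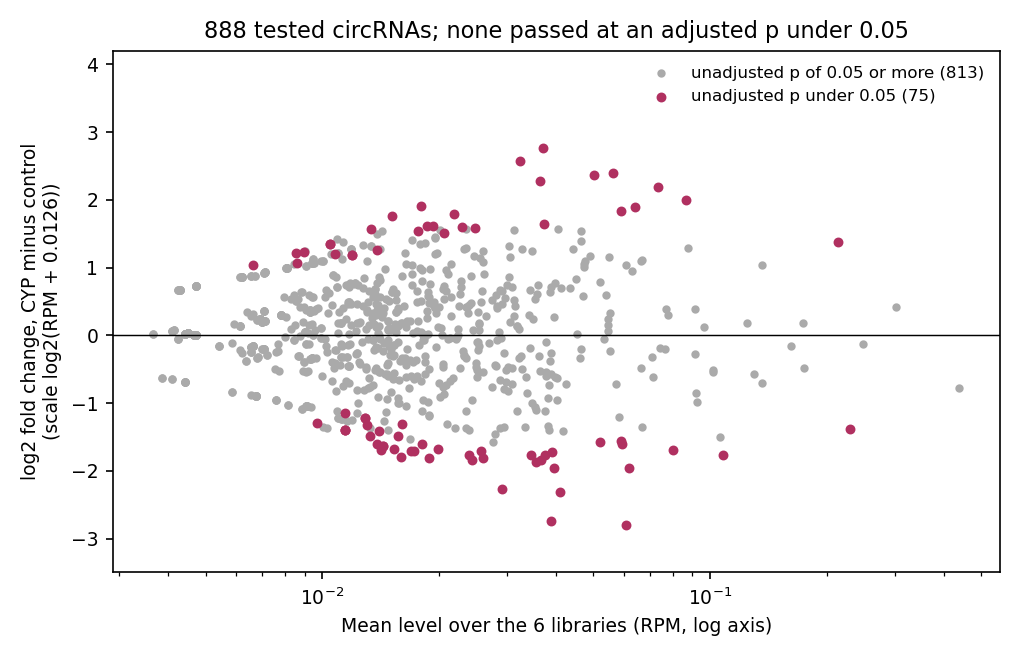
log2 fold change of CYP against control by mean level over the 6 libraries (RPM, log axis) for the 888 tested circRNAs. Points are circRNAs, and dark red marks the 75 at an unadjusted p under 0.05. They lie on both sides of 0 (31 above, 44 below), and 16 circRNAs reach a mean of 0.1 RPM.

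The highest-ranked circRNAs above control were 6 with few or no control reads, all of them also listed by the authors. dre_circ_1686 had 0 reads in every control library and 7, 6 and 4 reads in the CYP libraries, or 0.0800, 0.0862 and 0.0560 RPM. With control set at its group limit of 3 reads, CYP was 6.08-fold higher, or 5.66-fold without CYP 2 (log2 fold change 2.76, SE 0.80, limma adjusted p = 0.273). dre_circ_731 showed the same pattern with 0 in control and 7, 5 and 3 reads in CYP. It was 5.37-fold higher against that limit and 4.64-fold once CYP 1 was left out. Its CYP level was 0.0646 ± 0.0200 RPM (SD, n = 3; log2 fold change 2.58, SE 0.79; limma adjusted p = 0.406). Both had reads in all 3 CPF libraries.

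dre_circ_2168 was at 0, 0.0419 and 0 RPM in control and at 0.0686, 0.101 and 0.126 RPM in CYP. Pooled reads, 3 against 22, gave a ratio of 7.87 with a counting interval of 2.37 to 41.1 (log2 fold change 2.40, SE 0.77; limma adjusted p = 0.521). CPF libraries were also above control for it, at 0.0879, 0.231 and 0.233 RPM. dre_circ_2428 was the reverse among controls, with 3 reads in control 1 and 0 in the others, and had 5, 6 and 9 reads in CYP (ratio 7.16, counting interval 2.12 to 37.6).

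For dre_circ_2836 a single control read stood against 8, 3 and 5 reads in CYP (ratio 17.2, counting interval 2.67 to 720), so its size is hardly bounded from above. dre_circ_68 had 0, 3 and 2 reads in control and 9, 11 and 8 in CYP, at 0.124 ± 0.0296 RPM the highest CYP level of the 6 (log2 fold change 2.18, SE 0.78; limma adjusted p = 0.650). It was 1.57 without control 1. In CPF its level was lower than in CYP, at 0.0291 to 0.0850 RPM.

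Outside the authors' list, dre_circ_1529 ranked next, with 0, 2 and 6 reads in control and 9, 15 and 7 in CYP (CYP mean 0.139 ± 0.0665 RPM, control mean 0.0346 ± 0.0383 RPM; limma adjusted p = 0.711). The eighth, dre_circ_7515, rested on 1, 1 and 2 reads in CYP and 0 in all 6 control and CPF libraries. It passed the filter for the test through CYP alone, and libraries at 0 added no spread to its SE. Its rank is therefore not separate support for a difference. Against the control limit this was 1.43-fold, or 1.04-fold without CYP 3. With so few reads, counting error in CYP, which these folds leave out, is large.

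Below control, 5 of the 8 highest-ranked circRNAs were present in all 3 control libraries and had at most 1 read in CYP. dre_circ_9274 was at 0.127, 0.0559 and 0.0506 RPM in control and had 0 reads in every CYP and every CPF library. It therefore passed the filter for the test through control alone, and libraries at 0 added no spread to its SE. Its rank and p-value are not separate support for a difference. With CYP set at its limit of 3 reads, it was 6.21-fold lower, and 4.05-fold lower when control 1 was left out (log2 fold change -2.74, SE 0.76). dre_circ_2975 had 26, 1 and 6 control reads and 0 in CYP, so that 75.4% of its RPM over the 6 libraries sat in control 1. The same limit gives a 10.2-fold lower level, reduced to 3.54-fold by leaving out control 1 (limma adjusted p = 0.273 for both circRNAs). In CPF, dre_circ_2975 had 4 reads in CPF 1 and 0 in the others.

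dre_circ_3291 had 8, 1 and 6 control reads against 0 in CYP. It was 4.66-fold lower against the CYP limit, and 3.54-fold with control 1 left out. All 3 CPF libraries had reads of it (2, 1 and 6). For dre_circ_9018 there were 7, 1 and 2 control reads and 0 in CYP and CPF. Against the CYP limit its level was 3.105-fold lower, and 1.52-fold once control 1 was left out. Like dre_circ_9274, it passed the filter for the test through control alone. For dre_circ_2547 the CYP group held a single read against 11, 2 and 7 in control (18.6-fold lower, counting interval 2.98 to 772). Control 1 was the highest library for all 5.

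dre_circ_243 was the only one of these 8 with reads in all 6 libraries. Its levels were 0.137, 0.112 and 0.278 RPM in control and 0.0229, 0.0431 and 0.0560 RPM in CYP, without overlap. The pooled level was 4.45-fold lower in CYP (log2 fold change -1.77, SE 0.68; limma adjusted p = 0.711). With any library left out it lay between -2.02 and -1.41. CPF levels, at 0.262 to 0.385 RPM, were all above the CYP levels.

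dre_circ_877 was steady in control, at 0.0739, 0.112 and 0.114 RPM, and had 5, 0 and 1 reads in CYP (log2 fold change -1.95, SE 0.78; limma adjusted p = 0.711). dre_circ_6472 had 0 reads in control 1 and in CYP, and 5 and 6 reads in the other 2 controls. It met the filter for the test only with a single read in CPF 3, and libraries at 0 in CYP added no spread to its SE. Its rank is not separate support for a difference. Without control 1 its log2 fold change was -2.76, against -1.84 with it.

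The authors' deposited table for this comparison lists 16 circRNAs, 6 higher and 10 lower in CYP, and all 16 are among the 953. In the authors' deposited table their p-values run from 0.00235 to 0.0495, and every adjusted p is 1. In the limma fit all 16 had the listed direction, 15 were at an unadjusted p under 0.05 (6.48% of all tested), and adjusted p-values ran from 0.273 to 0.711. The list was chosen on these samples, so its directions, p-values and separation of groups are not independent evidence. The listed circRNAs had 15 to 112 reads over the 6 libraries. All 6 listed as higher had groups that did not overlap, and so did 7 of the 10 listed as lower, against 3.63% and 3.20% of all tested. Selection on the same libraries favours such separation, so the contrast with all tested carries no weight.

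The 3 listed circRNAs with overlapping groups were dre_circ_2928, dre_circ_446 and dre_circ_2586. dre_circ_2928 had 24, 3 and 16 reads in control and 1, 4 and 5 in CYP, so control 2 lay inside the CYP range (log2 fold change -1.49, SE 0.78). dre_circ_446 had 17, 3 and 5 reads in control and 0, 2 and 3 in CYP, with control 2 and CYP 3 at like levels (0.0419 and 0.0420 RPM). For dre_circ_2586, 16 of the 20 control reads were in control 1, and its log2 fold change of -1.95 was -1.19 without that library.

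Control 3 was the highest library for dre_circ_243 and dre_circ_3038, the other 2 listed as lower. dre_circ_3038 stood at 0.106, 0.112 and 0.164 RPM in control and at 0.0572, 0.0144 and 0.0280 RPM in CYP (log2 fold change -1.70, SE 0.75; limma adjusted p = 0.711). Control 1 was the highest for 8 of the 10, and 5 of the 6 listed as higher had 0 reads there. Control 3 likewise had 0 reads for each of these 6 except dre_circ_68. Being listed as higher favours few reads in any control library, so the absence does not single out control 1.

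**Figure D5:**
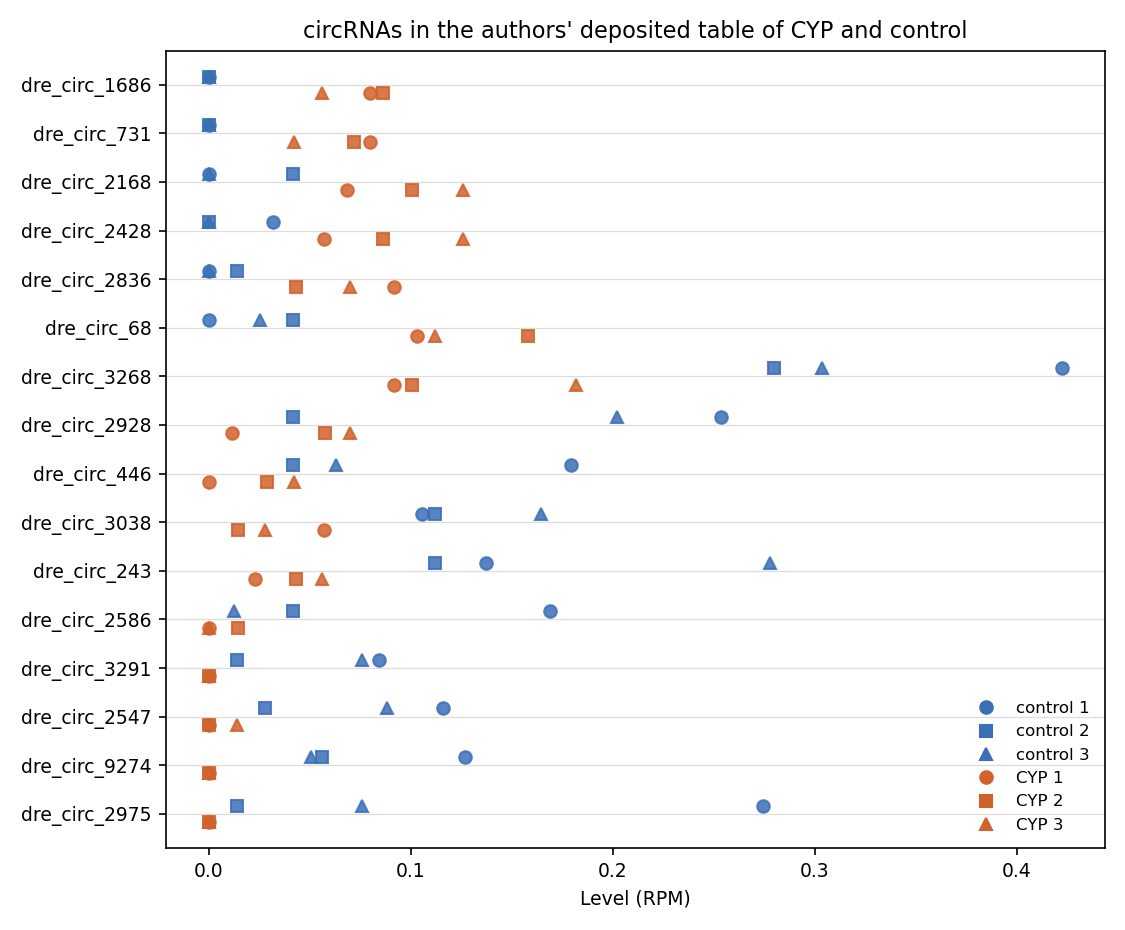
Level in RPM in each control and CYP library of the 16 circRNAs in the authors' deposited table, ordered by limma log2 fold change from highest at the top. Points at 0 lie on top of each other, as for the 3 control libraries of dre_circ_1686 and dre_circ_731. The groups overlap for dre_circ_2928, dre_circ_446 and dre_circ_2586.

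Presence and absence rested on few reads in either direction. Of the 953, 735 had reads in both groups, 113 in CYP alone and 105 in control alone. In all 3 CYP libraries and no control library there were 19 circRNAs, with 3 to 17 reads each and a median of 5, and 11 of them had 5 reads or fewer. In the opposite direction there were 20, with 5 to 33 reads and a median of 7. When at least 3 reads were required in each library, 2 remained in CYP (dre_circ_1686 and dre_circ_731) and 1 in control (dre_circ_9274). CPF libraries had reads of 17 of the 19 and of 18 of the 20. That is near the general share: they had reads of 866 of the 953, and of 92.0% of those seen in 3 libraries.

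Of the 5 with most reads in each direction, 4 were not described above. The fifth place was tied: dre_circ_1299 had 7 reads in CYP like dre_circ_176, and dre_circ_450, dre_circ_698 and dre_circ_4761 had 8 in control like dre_circ_1434. dre_circ_1262 had 9, 1 and 1 reads in CYP and 0 in control, 3.94-fold higher against the control limit but 1.16-fold without CYP 1. dre_circ_176 had 5, 1 and 1 reads (2.50-fold against that limit, 1.16-fold without CYP 1). dre_circ_324 was even, with 2, 3 and 3 reads (2.86-fold against that limit, 2.57-fold without CYP 2). In the opposite direction dre_circ_1434 had 2, 5 and 1 reads in control. Against the CYP limit it was 2.48-fold lower in CYP, and 1.31-fold without control 2.

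For the circRNAs with more reads, the share of the level held by the highest of the 6 libraries varied widely. Such a share mixes spread within a group with any difference between groups and with counting error. Among the 79 with at least 20 reads over the 6 libraries, the highest library held 22.9% to 75.4% of the RPM, with a median of 35.5%. In 9 of them 1 library held over 50%, and in 8 of the 9 this was control 1. Control 1 was the highest library for 21 of the 79, CYP 1 for 16, CYP 2 for 15, control 3 for 13, control 2 for 10 and CYP 3 for 4.

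dre_circ_1591, with 67.4% of its RPM in control 1, stood at 0.412, 0.0419 and 0.0126 RPM in control and at 0.0457, 0.0287 and 0.0699 RPM in CYP. A single library, control 1, lay far above the other 5. Its log2 fold change of -0.52 (SE 0.79) became 0.65 without control 1. dre_circ_1878 and dre_circ_505 each had 13 of 17 control reads in control 1, with log2 fold changes of -1.33 and -1.40 that were -0.66 and -0.75 without it.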

How the data were processed

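The authors deposited a table of RPM values (junction reads scaled to the library total; the sheet is named fpm) for 2581 circRNAs in 9 libraries. Which aligner, caller and filter made the table is not given in the sources used here. DESeq2 and UMD3.1, a cattle assembly's name, stand without a role in the build and tool names of the submitters' processing notes, and no coordinate is printed. The deposited CPF columns hold the same signal, with 3 cells, all of dre_circ_2902, whose decimal point was restored. All values (100% at a tolerance of 1e-06) were whole multiples of the value of 1 read, so the counts behind the deposited RPM were recovered. From the authors' deposited table of 16 circRNAs, p-values and adjusted p-values were taken as given. Its pooled values and log2 fold changes have lost decimal points and are not printed.

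limma 3.58.1 (R 4.3.3; mean-variance trend) was fitted on log2(RPM + 0.0126), the pseudocount being the median value of 1 read, with all 9 libraries in 1 fit, for circRNAs above 0 in at least 3 libraries. This scale understates changes of low circRNAs. Adjustment was by Benjamini-Hochberg at 0.05. edgeR 4.0.16 and DESeq2 1.42.0 were run on recovered reads as alternatives. All were also run on simulated data with known changes, but how many each recovered is not given here. Single values used exact permutation tests (scipy 1.17.1). Named circRNAs are the 10 highest in mean RPM, the authors' 16, the 8 smallest p-values per direction, the 5 presence circRNAs per direction with most reads, the 5 most concentrated in 1 library among those with at least 20 reads, and the 5 narrowest intervals among those in all 6 libraries. Members, lists and tests were chosen with earlier results of these data known. Chi-square per degree of freedom was 1.46 to 2.65 for pairs within control and CYP, so libraries were kept separate in every test. Reads were pooled within a group for ratios, group limits and counting intervals, which leave out this spread between libraries.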

Additional observations from a re-analysis of the deposited data

How the results depend on the processing

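No circRNA passed at an adjusted p under 0.05 under any of the 21 other fits, whose smallest adjusted p ran from 0.0864 (without control 2) to 0.896 (without CYP 2). Unadjusted counts moved more. Requiring reads in 6 of 9 libraries left 350 of the 1158 circRNAs to test, so its lower counts below are larger shares of those tested. With a library left out, 957 to 1105 were tested. The 31 higher became 53 with equal circRNA totals and 20 with reads required in 6 of 9 libraries, and ran from 17 to 52 with a library left out. The 44 lower became 13 by DESeq2, 26 without the CPF libraries and 19 with the 6 of 9 filter, and ran from 21 to 46. DESeq2 also moved the median log2 fold change from 0.03 to 0.38. Of the 75, 58 were shared with edgeR on library totals (chosen after seeing the data), 51 with edgeR and TMM and 29 with DESeq2. The 79 without overlap became 52 with the 6 of 9 filter and ran from 79 to 162 with a library left out. The 19 present in CYP alone became 2 with 3 reads required and 113 with 2 of 3 libraries, and ran from 26 to 57. The 20 in control alone became 1 and 105, and ran from 22 to 61. At 1299 circRNA reads per library, averages were 16.4 and 14.1. Leaving out a control or CYP library, or asking for 2 of 3, relaxes the rules for overlap and presence, and 3 reads tighten the latter. The direction of those moves was largely set by the rules. The 113 and 105 are simply all members with reads in 1 group alone.

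The log2 ratio of summed level changed sign with TMM factors (0.10) and ran from -0.18 to 0.078 with a library left out, and that of detected numbers ran from -0.10 to 0.22. The ratio of the 58 circRNAs in all 6 libraries ran from -0.48 to -0.22 and was -0.32 with equal circRNA totals, a setting chosen after seeing the data.

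Deviations of same-numbered control and CYP libraries from their group means correlated at -0.03, 0.02 and -0.04. With so few reads per circRNA, counting error alone can hold such correlations near 0. Whether replicate numbers pair the libraries is therefore not settled. With the replicate block the counts were 34 higher and 45 lower with 0 adjusted, and no call changed.

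Of the 37 named circRNAs, 6 changed sign under some setting, and all 6 missed the threshold throughout. dre_circ_517 gave 0.15 by DESeq2 and 0.088 with quantile normalization, and -0.56 to 0.16 with a library left out. dre_circ_2518 gave -0.15 by edgeR on library totals and -0.21 by edgeR with TMM, and -0.83 to 0.78 with a library left out. dre_circ_3035 gave 0.038 by DESeq2 and 0.32 with quantile normalization, and -0.50 to 0.041 with a library left out. The range with a library left out was -0.18 to 1.93 for dre_circ_713, -1.57 to 0.18 for dre_circ_3196 and -1.38 to 0.65 for dre_circ_1591. Depth was a median of 6 reads per circRNA over the 6 libraries, and the median SE of the log2 fold change was 0.76.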
